A study of Rattus norvegicus with 12 samples.

Results

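The genes described here are 7 genes of thyroid hormone action in the rat striatum: the receptors Thra and Thrb, the deiodinases Dio1, Dio2 and Dio3, and the hormone-responsive genes Hr and Klf9. They were found by gene name among the probes of the array that are not control probes, ignoring upper or lower case and a "_predicted" ending. The 7 genes had 13 of the 41012 probes and were 7 of 35608 genes or unnamed transcripts. Of the 13 probes, 11 were well above the local background on at least 0.4 of the 12 arrays, and each gene kept at least 1 of these. No member spot was marked as an outlier by the scanner software, and none was saturated.

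Thyroid hormone reaches brain cells mostly as the prohormone T4. Type 2 deiodinase, the product of Dio2, is found in astrocytes and tanycytes and converts T4 to the active T3, whereas type 3 deiodinase, the product of Dio3, is found mainly in neurons and inactivates both forms. T3 binds nuclear receptors encoded by Thra and Thrb, which pair with retinoid X receptors on DNA and exchange corepressors for coactivators. Hr, which encodes a corepressor, and Klf9, which encodes a zinc finger transcription factor, are known in brain as genes that T3 induces through these receptors.

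The study asked how high frequency stimulation of the subthalamic nucleus and L-DOPA change striatal gene expression in a rat model of Parkinson's disease. All rats were male and carried a left-sided injection of 9 µg of 6-hydroxydopamine (6-OHDA) into the substantia nigra pars compacta, which removes most of the dopamine input to the striatum on that side. The 6-OHDA group had the lesion alone. The HFS group had stimulation on the lesion side through 1 implanted electrode for 5 days without interruption. Its frequency was 130 Hz, its pulse width 80 µs and its current 60 µA. Rats of the DOPA group received 25 mg/kg L-DOPA with 12.5 mg/kg benserazide, 2 injections a day for 19 days. The DOPA/HFS group had both, with stimulation over the last 5 of those days. Among the groups on the arrays, the methods describe electrode implantation, under anaesthesia, only for HFS and DOPA/HFS. Implantation and stimulation therefore cannot be told apart here. Each group held 3 rats, and each array was hybridised with RNA from the dorsal striatum of 1 rat, from punches that were pooled. Unlesioned rats were not analysed here, so no value below shows what the lesion itself did. In such tissue, fewer cells of a type and less RNA per cell cannot be told apart.

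Replicates 1, 2 and 3 of every group lay on slides 1, 2 and 3, and each group held the same position on each slide, so that position and treatment cannot be told apart. The share of spots well above background was 60.0 to 63.2% on the arrays of the stimulated groups (HFS and DOPA/HFS) and 50.5 to 58.9% on the others. One array, DOPA/HFS replicate 3, had 4175 spots marked as outliers, against 2 to 25 on the other arrays. Of 9 measured genes that mark striatal projection neurons, 8 were well above background on all 12 arrays. Choroid plexus markers (11 genes) had a summed signal of 10156 to 96795 on the HFS arrays, 3655 to 6390 on the 6-OHDA arrays, 3740 to 20725 on the DOPA arrays and 4167 to 5792 on the DOPA/HFS arrays. DOPA replicate 3, at 20725, was above HFS replicate 2, at 10156. Values below are log2 of the quantile-normalised signal of a gene's brightest probe unless another probe is named. Signals of different probes are not comparable, so no order of level is given between genes.

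No difference of the 7 genes between a treated group and 6-OHDA exceeded the spread between arrays in limma's test. A gene was called when limma's adjusted p was under 0.1 and its fold was over 1.2 or under 0.8, and 0 of 7 were called in each of the 6 comparisons. Over all 20408 genes tested, 0% were called for HFS against 6-OHDA, 0.0049% for DOPA against 6-OHDA and 0% for DOPA/HFS against 6-OHDA. None of the 7 had an unadjusted p under 0.05 in any comparison, where 2.35%, 2.59% and 2.75% of all genes did in those 3 contrasts. The lowest unadjusted p of a member was 0.114, for Hr in DOPA against 6-OHDA, and the lowest adjusted p was 0.916, for Hr in the main effect of stimulation. With 3 arrays against 3, an exact two-sided permutation test cannot give a p below 0.1. The arrays of each treated group overlapped those of 6-OHDA for the brightest probe of all 7 genes, whereas the groups did not overlap for 5.14% (HFS), 6.18% (DOPA) and 4.19% (DOPA/HFS) of all genes with a value on every array.

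**Figure D1:**
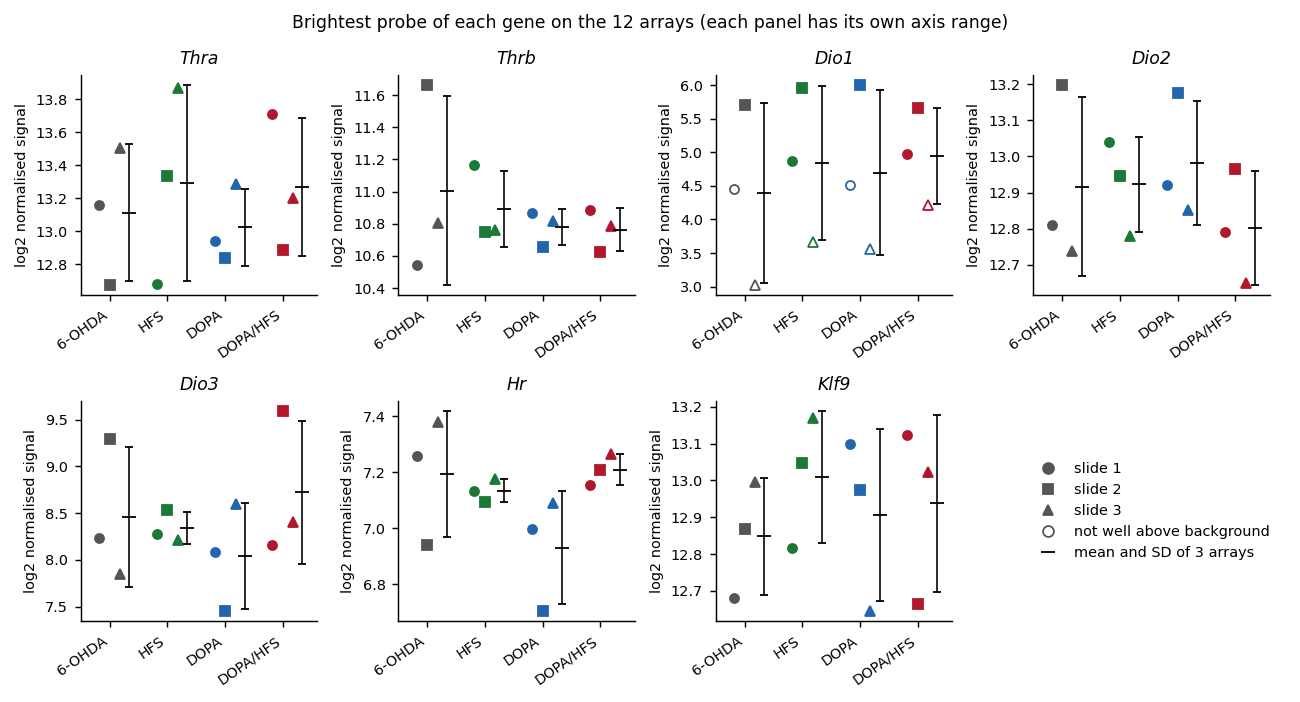
Log2 normalised signal of the brightest probe of each gene (vertical axis, a range of its own in each panel) on the 12 arrays by group (horizontal axis). Points are arrays, shapes are slides, open points were not well above background, and the bar beside each group is its mean ± SD (n = 3). For Dio1 the squares of slide 2 lie between 5.65 and 6.01 in every group and the triangles of slide 3 between 3.03 and 4.22.

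Thra encodes the receptor that carries most T3 signalling in neurons. Its 1 probe is annotated to the transcript of the alpha 1 form, which binds T3. On the 6-OHDA arrays its log2 signal was 13.16, 12.68 and 13.51 for replicates 1 to 3, and on the HFS arrays 12.68, 13.33 and 13.87. On the DOPA arrays it was 12.94, 12.84 and 13.29, and on the DOPA/HFS arrays 13.71, 12.89 and 13.20. The ranges of all 4 groups overlapped, and HFS held both the highest array and one of the lowest. The log2 difference from 6-OHDA was 0.18 ± 0.32 (SE; 95% interval −0.53 to 0.89) for HFS, −0.09 ± 0.32 (−0.80 to 0.62) for DOPA and 0.15 ± 0.32 (−0.56 to 0.86) for DOPA/HFS. Within slides 1, 2 and 3, HFS minus 6-OHDA was −0.48, 0.66 and 0.36, so the direction was not shared. Nr1d1, which encodes the clock repressor REV-ERBα and overlaps Thra on the opposite strand, had a mean below that of 6-OHDA in all 3 treated groups (log2 differences of −0.27 for HFS, −0.35 for DOPA and −0.27 for DOPA/HFS), with 0.105 as the lowest unadjusted p in limma.

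Thrb encodes the second T3 receptor, which also serves feedback in the pituitary. Its brighter probe read 10.55, 11.67 and 10.81 on the 6-OHDA arrays, 11.16, 10.75 and 10.76 with HFS, 10.87, 10.66 and 10.82 with DOPA, and 10.89, 10.62 and 10.79 with DOPA/HFS. The lowest and the highest of the 12 values were both 6-OHDA arrays. The mean was 11.01 ± 0.59 (SD, n = 3) in 6-OHDA and 10.78 ± 0.11 in DOPA, so the untreated group spread more than the treated groups. The log2 differences were −0.12 ± 0.25 (SE) for HFS, −0.23 ± 0.25 for DOPA and −0.24 ± 0.25 for DOPA/HFS, with the widest interval bounds at −0.80 and 0.44. All 3 turned direction without 6-OHDA replicate 2, to 0.21, 0.10 and 0.088. A second Thrb probe, designed to a partial transcript of the beta 3 form, stayed at background on all 12 arrays, so no difference is given for it.

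Dio1 encodes the type 1 deiodinase, an enzyme of liver, kidney and thyroid with little expression in adult brain. Its brighter probe was well above background on 6 of 12 arrays (1 of the 6-OHDA arrays, 2 of HFS, 1 of DOPA and 2 of DOPA/HFS), and its second probe on none. The brighter probe read 4.45, 5.70 and 3.03 in 6-OHDA, 4.88, 5.96 and 3.67 in HFS, 4.51, 6.01 and 3.57 in DOPA, and 4.97, 5.66 and 4.22 in DOPA/HFS. Slide 2 was highest and slide 3 lowest in all 4 groups, and the ranges of the 3 slides did not overlap (4.45 to 4.97, 5.65 to 6.01 and 3.03 to 4.22). Slides held 90.6% of the sum of squares of this probe over the 12 arrays and groups 4.77%, where the median over all genes was 21.0% and 21.1%. The slide share was larger than in 99.8% of all genes. The log2 difference from 6-OHDA was 0.44 ± 0.80 (SE) for HFS, 0.30 ± 0.80 for DOPA and 0.55 ± 0.80 for DOPA/HFS. With slide as a block the standard error fell to 0.22. The DOPA/HFS difference then had a 95% interval of 0.05 to 1.05 and an unadjusted limma p of 0.0337, with an adjusted p of 0.972. Within slides 1, 2 and 3 that difference was 0.52, −0.05 and 1.19. HFS minus 6-OHDA was 0.42, 0.26 and 0.64 and DOPA minus 6-OHDA 0.06, 0.31 and 0.54, above 0 on each slide, with unadjusted limma p of 0.0776 and 0.207 under the block. On slides 1 and 3 the 6-OHDA array was not well above background, so all these differences rest in part on values at the floor. The share of all genes with an unadjusted p under 0.05 was not counted for the block fit. Stimulation against no stimulation, averaged over both L-DOPA levels, gave 0.35 with the block (95% interval −0.01 to 0.70). Stimulated arrays also had the higher share of spots above background given earlier, whose part in these values was not tested.

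**Figure D2:**
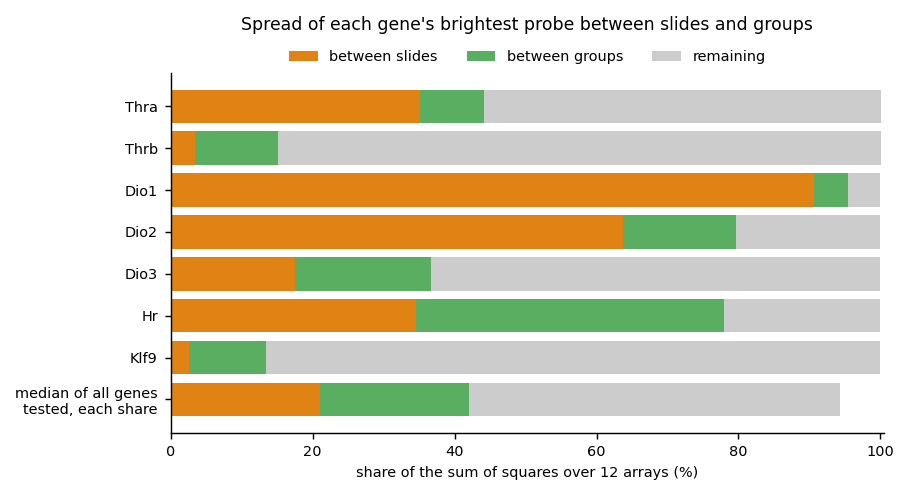
Share of the sum of squares of log2 signal over the 12 arrays (horizontal axis, %) that lies between slides, between groups and in neither, for the brightest probe of each gene and as the median of each share over all genes tested (medians need not add to 100). Dio1 (90.6%) and Dio2 (63.7%) have the largest slide shares of the 7, and Hr (43.4%) the largest group share.

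Dio2, the activating deiodinase of brain, had 3 probes. The brightest read 12.81, 13.20 and 12.74 in 6-OHDA, 13.04, 12.95 and 12.78 in HFS, 12.92, 13.18 and 12.85 in DOPA, and 12.79, 12.97 and 12.65 in DOPA/HFS. All 12 values lay within 0.55 on the log2 scale, the narrowest ranges of the 7 genes being those of Klf9 (0.52) and Dio2. Its differences from 6-OHDA were 0.01 ± 0.17 (SE) for HFS, 0.07 ± 0.17 for DOPA and −0.11 ± 0.17 for DOPA/HFS. The 95% intervals together ran from −0.48 to 0.43. Slide 3 was lowest in every group, and slides held 63.7% of the sum of squares, a larger share than in 96.7% of all genes. The second probe followed the first with r = 0.47 over 12 arrays (permutation p = 0.120, adjusted 0.299 over 5 probe pairs; rho = 0.62, p = 0.0371, adjusted 0.0928), and with r = 0.04 once group and slide means were removed. The third and dimmest probe, well above background on 10 of 12 arrays, had r = 0.08 with the first (permutation p = 0.813; rho = −0.07, p = 0.832). Its groups overlapped too: it read 5.70 to 6.33 in 6-OHDA, 5.82 to 6.71 in HFS, 5.89 to 6.34 in DOPA and 5.33 to 6.22 in DOPA/HFS. Astrocyte markers (9 genes, of which 7 were well above background on all arrays) had summed signals of 77802 to 90540 in 6-OHDA, 86871 to 96273 in HFS, 78961 to 93956 in DOPA and 87819 to 96990 in DOPA/HFS. Of 5 measured markers of ependyma and tanycytes, 3 were well above background on all 12 arrays, and 1, the tanycyte marker Rax, on none. Their summed signals were 5072 to 13213 in 6-OHDA, 9455 to 12658 in HFS, 5073 to 7765 in DOPA and 7504 to 12038 in DOPA/HFS.

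Dio3, the inactivating deiodinase, had the largest difference of the 7 genes for DOPA, and its 2 probes did not vary together. The brighter probe read 8.24, 9.29 and 7.85 in 6-OHDA, 8.28, 8.53 and 8.21 in HFS, 8.08, 7.45 and 8.59 in DOPA, and 8.16, 9.60 and 8.41 in DOPA/HFS. The lowest of all 12 values was DOPA replicate 2 and the highest DOPA/HFS replicate 2. The differences from 6-OHDA were −0.12 ± 0.44 (SE) for HFS, −0.42 ± 0.44 (95% interval −1.39 to 0.55) for DOPA and 0.26 ± 0.44 (−0.71 to 1.23) for DOPA/HFS. DOPA minus 6-OHDA was −0.16, −1.84 and 0.74 within slides 1, 2 and 3. The DOPA difference was −0.12 without DOPA replicate 2 and −0.0011 without 6-OHDA replicate 2, and the HFS difference turned to 0.30 without the latter. The interaction compares the effect of stimulation under L-DOPA with its effect in untreated rats. It was 0.80 ± 0.62 for Dio3, with an unadjusted p of 0.227 and an adjusted p of 1 in limma.

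The dimmer Dio3 probe was well above background on 9 of 12 arrays. These were 1 of the 6-OHDA arrays, 3 of HFS, 2 of DOPA and 3 of DOPA/HFS. The filter was thus passed mainly through stimulated arrays, where the probe read higher, and the tests below take no account of this. In 6-OHDA, replicates 2 and 3 were not well above background, so differences from 6-OHDA rest in part on values at the floor. The probe read 5.17, 4.92 and 5.31 in 6-OHDA and 5.12, 5.82 and 5.49 in HFS. It read 5.23, 5.24 and 5.36 in DOPA and 5.42, 5.79 and 5.47 in DOPA/HFS. All 3 DOPA/HFS arrays lay above all 3 6-OHDA arrays, a separation found for 4.12% of all probes with a value on every array. The difference was 0.43 ± 0.19 (SE), with an unadjusted limma p of 0.0488 (2.67% of all probes had one under 0.05), an adjusted p of 0.9997 and an exact permutation p of 0.1. Averaged over L-DOPA, stimulated arrays were higher by 0.31 ± 0.14, with an unadjusted p of 0.0419, an adjusted p of 0.931 in limma and an exact two-sided permutation p of 0.035 within L-DOPA levels. This was 1 of the 11 member probes, and 4.2% of all 24254 probes tested had an unadjusted p under 0.05 in that contrast. With slide as a block the unadjusted p was 0.0453 (adjusted 0.749). On the brighter probe the main effect was of the same sign and close in size but with a wider error (0.28 ± 0.31, unadjusted limma p of 0.387). The separate differences from 6-OHDA had opposite signs on the brighter and the dimmer probe, −0.12 and 0.34 for HFS and −0.42 and 0.14 for DOPA. The interaction was 0.80 on the brighter and −0.06 on the dimmer probe. Between both probes r was 0.23 over 12 arrays (permutation p = 0.481, rho = 0.20, p = 0.529). As for Dio1, the probe is dim and the share of spots above background was higher on the stimulated arrays, and its part in the difference was not tested.

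**Figure D3:**
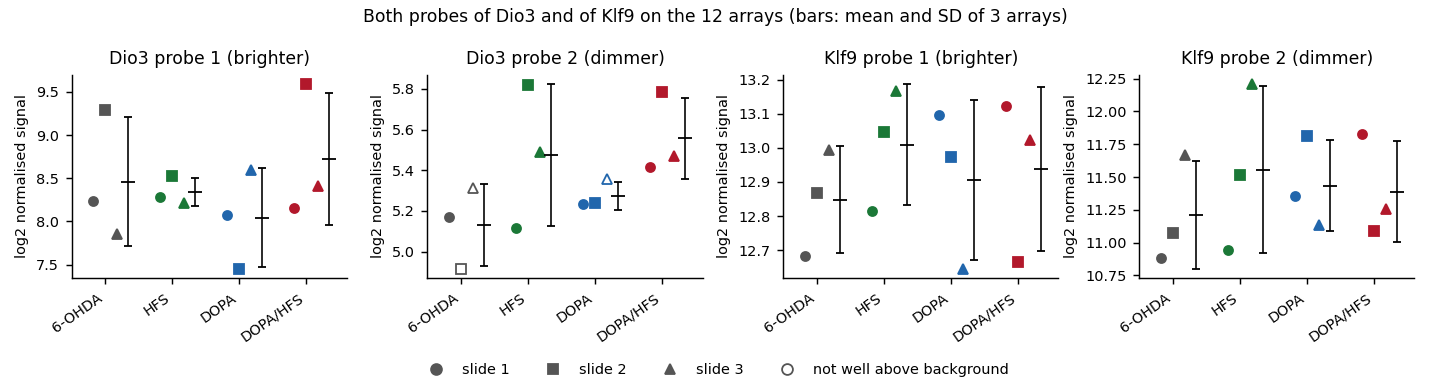
Log2 normalised signal (vertical axes, each with its own range) of both probes of Dio3 and both probes of Klf9 by group. Points are arrays, shapes are slides, open points were not well above background, and bars are mean ± SD (n = 3). Only the dimmer Dio3 probe has all DOPA/HFS arrays (5.42 to 5.79) above all 6-OHDA arrays (4.92 to 5.31), and the Klf9 probes follow each other (r = 0.79).

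Hr, the T3-induced corepressor, had 1 probe. It read 7.26, 6.94 and 7.38 in 6-OHDA, 7.13, 7.09 and 7.18 in HFS, 6.997, 6.71 and 7.09 in DOPA, and 7.16, 7.21 and 7.26 in DOPA/HFS. The DOPA arrays overlapped those of 6-OHDA. They lay below all DOPA/HFS arrays, and 9.43% of all genes had no overlap between those groups. They also lay below all HFS arrays, at 7.091 against 7.092 where the groups came closest, and there 13.9% of all genes had no overlap. Of the 7 genes Hr had the largest share of its sum of squares between groups, 43.4%. DOPA was below 6-OHDA by −0.26 ± 0.15 (SE; 95% interval −0.60 to 0.07), with an unadjusted limma p of 0.114 and an adjusted p of 1. Within slides 1, 2 and 3 that difference was −0.26, −0.24 and −0.29, and with slide as a block its unadjusted p was 0.0865 (adjusted p of 1). HFS differed from 6-OHDA by −0.06 ± 0.15 and DOPA/HFS by 0.02 ± 0.15. The sign of the latter turned to −0.20 when outlier spots were kept, which changes the normalisation of DOPA/HFS replicate 3. The separation of DOPA from DOPA/HFS was looked at only with those spots left out. The interaction, which also uses that array, was 0.34 ± 0.22, with an unadjusted p of 0.147.

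Klf9, the zinc finger factor that both T3 and glucocorticoids induce, had 2 probes. The brighter read 12.68, 12.87 and 13.00 in 6-OHDA, 12.82, 13.05 and 13.17 in HFS, 13.10, 12.97 and 12.65 in DOPA, and 13.12, 12.67 and 13.02 in DOPA/HFS. Group means lay between 12.85 ± 0.16 (SD, n = 3) in 6-OHDA and 13.01 ± 0.18 in HFS, and the ranges of all 4 groups overlapped. The differences were 0.16 ± 0.18 (SE; 95% interval −0.23 to 0.56) for HFS, 0.06 ± 0.18 (−0.34 to 0.45) for DOPA and 0.09 ± 0.18 (−0.31 to 0.48) for DOPA/HFS. HFS was above 6-OHDA on each slide, by 0.14, 0.18 and 0.17. Its 2 probes varied together, with r = 0.79 over 12 arrays (permutation p = 0.00286, adjusted 0.0143 over 5 probe pairs; rho = 0.77, p = 0.00503), r = 0.81 without the 2 arrays farthest from the median and r = 0.80 with group and slide means removed. The spread of Klf9 between arrays was thus seen by both probes.

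**Figure D4:**
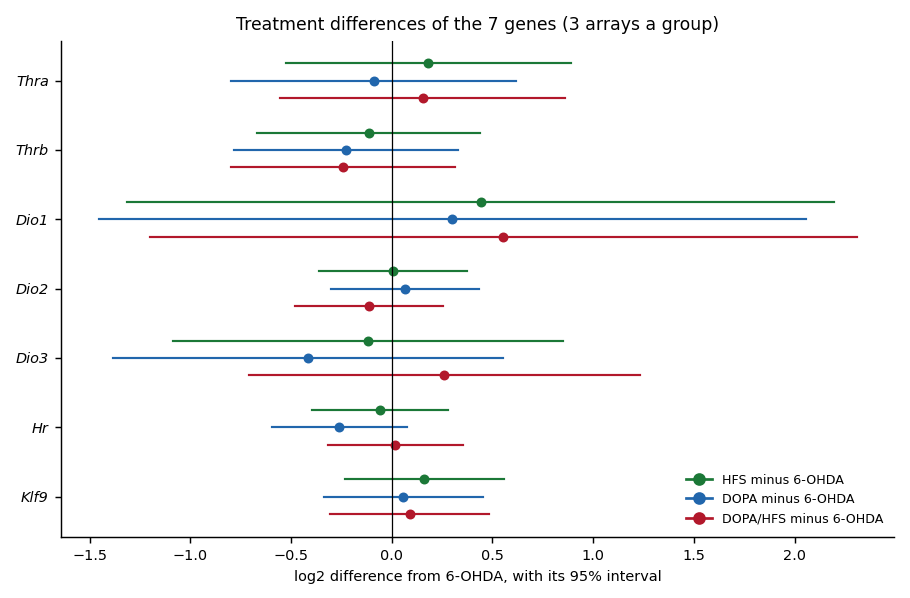
Log2 difference of each treated group from 6-OHDA (horizontal axis) with its 95% interval for the brightest probe of the 7 genes (3 arrays a group, spread shared over 4 groups in limma). Every interval includes 0, and the intervals of Dio1, from −1.45 to 2.31, are the widest.

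The main effects of L-DOPA and of stimulation were estimated from 6 arrays against 6. For L-DOPA they ranged from −0.18 (Thrb) to 0.21 (Dio1) over the 7 genes, and for stimulation from −0.09 (Dio2) to 0.35 (Dio1). The interaction ranged from −0.19 (Dio1) to 0.80 (Dio3). None of the 7 was called, where 0.0049%, 0% and 0% of all genes were, and none had an unadjusted p under 0.05, where 2.73%, 4.36% and 1.98% did. An exact permutation test of a main effect, within levels of the other treatment, could have reached p = 0.005 here, and the lowest p of a brightest probe was 0.325.

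Pairs of the genes were then compared across the 12 arrays. Of 21 pairs, 3 had an adjusted p under 0.05, and all 3 include Dio2. Dio2 and Hr ran opposite to each other (r = −0.80, permutation p = 0.00136, adjusted p = 0.0286; rho = −0.76, p = 0.00553, adjusted p = 0.0387), with r = −0.58 without the 2 arrays farthest from the median of Dio2. Dio2 and Thra did so too (r = −0.74, permutation p = 0.00675, adjusted p = 0.0486; rho = −0.80, p = 0.00277, adjusted p = 0.0387), with r = −0.78 without the 2 farthest arrays of Thra. The third pair was Dio2 with Dio1, for which no r is given because the arrays of each slide form a separate cluster of Dio1 values. A slide holds 4 arrays, too few for a correlation of its own. With group and slide means removed, r was −0.59 for Dio2 and Hr and −0.58 for Dio2 and Thra, and 0 of 21 pairs had an adjusted p under 0.05 (lowest 0.0638).

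**Figure D5:**
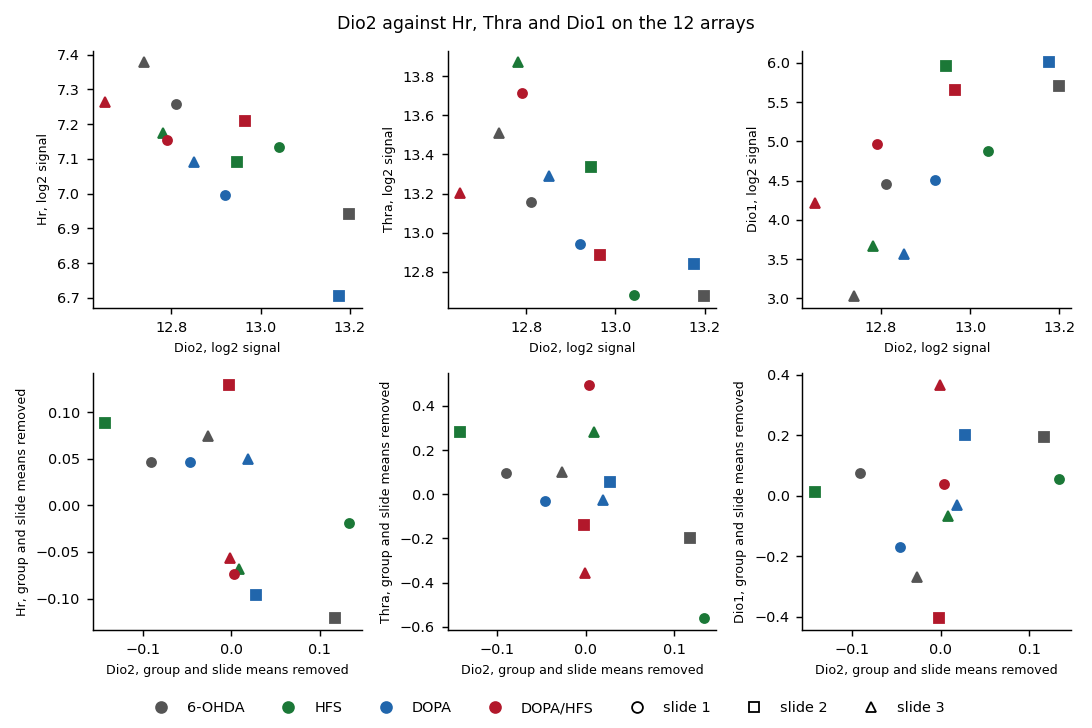
Dio2 (horizontal axes) against Hr, Thra and Dio1 (vertical axes) on the 12 arrays, as log2 normalised signal in the upper row and with group and slide means removed in the lower row. Colours are groups and shapes are slides. In the upper row slide 2 has the highest Dio1 values and slide 3 low Dio2 values, and in the lower row r is −0.59 for Hr and −0.58 for Thra.

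As a description, the genes most like each member well above background on all 12 arrays, which leaves out Dio1, were listed among 18359 genes. Thra was closest to Rab3a, a synaptic vesicle GTPase (r = 0.98), and Epas1, a hypoxia-inducible factor (r = 0.98), and these stayed at 0.98 with group and slide means removed. Thrb was closest to Styxl1 (r = 0.93, but rho = 0.61). Dio3 was closest to Fh, the fumarase gene (r = 0.89), and Klf9 to the unnamed locus LOC686892 (r = 0.91). The 3 genes closest to Hr included Traf4, a signalling adaptor (r = 0.88, but 0.60 with group and slide means removed). The 3 genes closest to Dio2 had slide shares of 50.3 to 51.0%, beside 63.7% for Dio2. Points share slides and normalisation, so these values describe the arrays alone.

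Other genes of the pathway were counted by role. The total also holds Nr1d1 and 7 glucocorticoid-responsive genes, which are not thyroid hormone genes. Over these 48 genes tested, limma called 0 in each of the 6 comparisons. The share at an unadjusted p under 0.05 was 4.17% for HFS, 4.17% for DOPA and 2.08% for DOPA/HFS against 6-OHDA, and their median log2 differences were −0.04, −0.04 and −0.01, beside 0.01, −0.01 and −0.01 over all genes. Without overlap with 6-OHDA were 8.33%, 6.25% and 2.38% of those with a value on every array of both groups, beside the shares of all genes given earlier. Missing values left fewer genes to count for DOPA/HFS.

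Of 11 transporters and carriers, 9 were tested, and Ttr and Slco1a5 had an unadjusted p under 0.05 for HFS against 6-OHDA, as had Alb for DOPA. Ttr encodes transthyretin, the T4 carrier of cerebrospinal fluid made by the choroid plexus. Its log2 difference was 8.27 ± 2.51 (SE; adjusted p = 0.998). Slco1a5, an organic anion transporter that carries thyroid hormones, read 6.31, 5.53 and 6.06 in 6-OHDA and 7.87, 6.36 and 7.73 in HFS, a difference of 1.35 ± 0.39 (unadjusted p = 0.00522, adjusted p = 0.998 in limma). The 3 HFS arrays were above the 3 6-OHDA arrays for both. The summed choroid plexus markers, a list that holds Ttr, were higher on the same arrays, as given earlier, and their part in the Slco1a5 difference was not tested. Alb, serum albumin, read 9.61, 9.47 and 9.85 in 6-OHDA and 5.35, 9.61 and 8.66 in DOPA (difference −1.77 ± 0.79, unadjusted p = 0.0474 in limma), with overlap. Crym, a cytosolic T3-binding protein abundant in striatum, read 15.76 to 15.85 in 6-OHDA and 16.01 to 16.05 in HFS, a difference of 0.23 ± 0.17 with an unadjusted p of 0.209.

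Of 15 receptor partners and coregulators, 14 were tested. Rxrg, the retinoid X receptor of striatal neurons, read 14.51, 14.34 and 14.57 in 6-OHDA and 14.66, 14.86 and 14.79 in DOPA, without overlap (difference 0.29 ± 0.13, unadjusted p = 0.0403, adjusted p of 1 in limma). Its HFS arrays, at 14.575 to 14.671, also lay above the 6-OHDA arrays, the highest of which read 14.574 (difference 0.16 ± 0.13, unadjusted p = 0.242 in limma). Ncoa1, a coactivator, read 10.05, 10.50 and 9.79 in 6-OHDA and 9.73, 9.69 and 9.76 in DOPA, lower and also without overlap (difference −0.39 ± 0.23, unadjusted p = 0.126 in limma). Ncoa2, another coactivator, was dim and not well above background on 2 of the 3 6-OHDA arrays. It read 5.45, 3.76 and 4.91 there and 5.58, 5.53 and 5.63 in DOPA/HFS (difference 0.87 ± 0.37, unadjusted p = 0.0398, adjusted p = 0.9997 in limma). Apart from Rxrg and Ncoa2, the other 12 genes of the list did not reach an unadjusted p under 0.05 in any of the 3 treatment comparisons.

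All 12 other genes known to respond to T3 were tested, and none had an unadjusted p under 0.05 in a treatment comparison. Their median log2 differences were 0.01 for HFS, 0.03 for DOPA and 0.02 for DOPA/HFS. Among them Nrgn, the neuronal T3 target neurogranin, differed by −0.12 ± 0.22 for HFS, 0.15 ± 0.22 for DOPA and 0.15 ± 0.22 for DOPA/HFS. Rasd2, the striatum-enriched T3 target Rhes, differed by −0.02, 0.01 and 0.00 (SE 0.12 each). Thrsp, a lipogenic T3 target, differed by −0.56 ± 0.24 with stimulation over both L-DOPA levels (unadjusted p = 0.0404, adjusted p = 0.911 in limma). It read 9.69 to 10.20 in 6-OHDA, 9.39 to 9.81 in HFS and 10.04 to 10.32 in DOPA. In DOPA/HFS replicate 3 was left out as an outlier spot, and the other 2 arrays read 8.76 and 10.16, so that the value rests in part on 1 low array.

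Of 9 genes of deiodinase turnover and selenoprotein synthesis, 5 were on the array and tested, and none had an unadjusted p under 0.05 in any comparison. Sephs2, a selenophosphate synthetase, read 10.02, 10.05 and 10.43 in 6-OHDA and 9.99, 9.85 and 9.91 in DOPA, without overlap (difference −0.25 ± 0.19, unadjusted p = 0.224 in limma). Because Klf9 also answers to glucocorticoids, 9 glucocorticoid-responsive genes were listed, of which 7 were tested. Sgk1, a glucocorticoid-induced kinase, was lower with L-DOPA by −0.48 ± 0.15 (unadjusted p = 0.00829, adjusted p = 0.9998 in limma) and higher with stimulation by 0.33 ± 0.15 (unadjusted p = 0.0495, adjusted p = 0.911). None of the other 6 had an unadjusted p under 0.05 in either main effect. Their L-DOPA main effects ran from −0.20 (Fkbp5) to 0.07 (Nr3c1), and their stimulation main effects from −0.22 (Tsc22d3) to 0.39 (Per1). The main effects of Klf9 were −0.01 ± 0.13 for L-DOPA and 0.10 ± 0.13 for stimulation.

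Of the RefSeq promoter windows (250 bases before to 50 after the start, build GRCr8), 7 were searched for 6 of the 7 genes, 2 of them for Thra. Hr was left out of this search. The receptor half-site AGGTCA was on neither strand in any of the 7 windows, where 16.2% of 33469 windows held it. This says only that these letters are not in the windows.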

How the data were processed

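Agilent one-colour arrays measured Cy3-labelled cRNA of the dorsal striatum, 1 rat to each of 12 arrays (45018 spots, 1639 of them controls). The authors scanned the arrays and extracted spots with Agilent Feature Extraction 9.1 per the submitters' processing notes, and deposited the background-corrected processed intensity of each spot. A deposited table of log2 values, in which every array has a median of 7.21 and whose ranks follow mean signal minus background median (rank correlation at least 0.998), served as an alternative. The study's methods name quantile normalisation with the AgiND library for the analysed data.

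From the processed intensities, log2 values were quantile-normalised between arrays, the method the authors state. Outlier spots were left out and spots of a probe averaged. Probes well above background on at least 0.4 of the arrays were kept, and the brightest stood for its gene (20408 genes). Where symbols were old they were updated through RefSeq accessions (10735 probes).

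Groups were compared with limma 3.58.1 in R 4.3.3 (lmFit, eBayes, 4 groups, no covariate), with Benjamini-Hochberg adjustment over all genes tested. All members are named. Other pathway genes were named from those that carried the extreme of their list, did not overlap between groups or best define it, and the 3 genes of highest r with each member above background on all arrays (all but Dio1) were listed. The members and lists were chosen with earlier results of these data known. Exact permutation tests were two-sided, and correlations used 1e+05 permutations. The code of the limma fit without a block was tested on simulated data with known changes in the HFS group. The block fit, the permutation tests and the correlations were not tested in this way. Arrays count no molecules, so their number, 3 rats a group, limits the precision.

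Slide barcodes in the file headers tie replicate numbers to slides. Alternatives were other scaling, background correction, the deposited table, other filters, the mean of all probes, outlier spots kept, slide as a block, the 6 arrays compared alone, other thresholds and leaving out each array. Probe sequences were not used here.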

Additional observations from a re-analysis of the deposited data

How the results depend on the processing

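No member was called in any of the 6 comparisons under any alternative, and no member probe was. Single values were followed for each gene's difference of each treated group from 6-OHDA. Of the main effects and interactions, only those of Thrb and Dio1 (L-DOPA), Dio1 and Dio2 (stimulation) and Dio1, Dio3 and Hr (interaction) were followed. Values of single dimmer probes were not. The lowest adjusted p among the values followed was 0.723 with all arrays and 0.68 with 1 left out. Under the requirement of 3 arrays above background in a group Dio1 was not tested. Directions turned in 9 of 239 values. With 75th percentile scaling Dio2 (HFS) was −0.083 and Hr (DOPA/HFS) −0.012. With normexp the Dio1 main effect of stimulation was −0.0012. With the deposited table Klf9 (DOPA/HFS) was −0.0036, Hr (DOPA/HFS) −0.13 and the Dio1 main effect of stimulation −0.011. With the mean of all probes Dio3 (HFS) was 0.11 and the Dio2 main effect of stimulation 0.0092. With outlier spots kept Hr (DOPA/HFS) was −0.20. The cause was not tested.

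The count of 3 correlated pairs became 4 with normexp, 1 with 75th percentile scaling, and 0 with the deposited table, with the mean of all probes, with outlier spots kept and with group and slide means removed. It was 0 to 3 with 1 array left out, and 3 only without DOPA/HFS replicate 3.

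Leaving out 1 array turned 37 of 336 differences. HFS against 6-OHDA ranged from −0.11 to 0.49 (Thra), −0.35 to 0.21 (Thrb), −0.24 to 1.09 (Dio1), −0.082 to 0.15 (Dio2), −0.42 to 0.30 (Dio3) and −0.18 to 0.034 (Hr). DOPA against 6-OHDA ranged from −0.31 to 0.11 (Thra), −0.46 to 0.10 (Thrb), −0.38 to 0.95 (Dio1), −0.030 to 0.21 (Dio2) and −0.038 to 0.19 (Klf9). DOPA/HFS against 6-OHDA ranged from −0.070 to 0.35 (Thra), −0.47 to 0.088 (Thrb), −0.13 to 1.21 (Dio1), −0.20 to 0.028 (Dio2), −0.18 to 0.68 (Dio3), −0.11 to 0.11 (Hr) and −0.0034 to 0.23 (Klf9). For Dio1, the L-DOPA main effect ranged from −0.13 to 0.53 and the interaction from −0.84 to 0.49. Among the differences followed, those that kept their direction without each array were HFS for Klf9 and DOPA for Dio3 and Hr. Direction was also kept by the stimulation main effect of Dio1 and of Dio2, the L-DOPA main effect of Thrb, and the interaction of Dio3 and of Hr. The direction of the other main effects and interactions without each array was not followed.

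With the replicate block (slide), values were the same, 0 members were called in each comparison, and the standard error of Dio1 fell from 0.80 to 0.22. Deviations of arrays on the same slide had correlations from −0.29 to 0.48 (median 0.11, over 0.1 in 10 of 18 pairs). Slide was left out of the main fit and used as a block only as an alternative, and replicate numbers were not taken to pair the rats. With 3 arrays a group, the median standard error over all genes was 0.22 for a treatment difference.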
